A study of Mus musculus with 6 samples.

Results

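Transcripts of 10 genes of the Wnt/beta-catenin pathway were followed in mouse regulatory T (Treg) cells differentiated with or without sorafenib (Sora), out of 22939 genes in the count table. The genes are Wnt3 and Wnt9b (ligands), Sulf2 (an enzyme that edits the heparan sulfate to which Wnts bind), Lrp5 and Lrp6 (co-receptors), Ctnnb1 (beta-catenin), Apc and Axin2 (scaffolds of the complex that destroys beta-catenin), and Tcf7 and Lef1 (the nuclear factors TCF1 and LEF1). They were matched by symbol and were chosen from the pathway with their counts in ctrl-Treg and Sora-Treg cells already known. Their differences between the groups are therefore given as a description. No p is given for a member, and edgeR calls of members are only counted, beside the share of all genes. Throughout, ± marks the SD over 3 libraries for a level and the SE of the fit for a log2 fold change. All 10 have a row in the table and 9 passed the filter on low counts. Wnt9b did not.

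Naive CD4 T cells came from C57BL/6J-background mice whose Foxp3 locus carries a GFP knock-in. They were differentiated into Treg cells on plate-bound anti-CD3 with anti-CD28, TGF-beta1, anti-IFN-gamma and anti-IL4, and GFP-positive cells were sorted for RNA-seq. Sora, a multikinase inhibitor used against liver cancer, was in the medium of the Sora-Treg cells from the start of culture and was absent from that of the ctrl-Treg cells. The labels give 3 libraries a group and neither dose, age, batch nor animal, so the spread between libraries may be technical. All cells carry the reporter allele and were induced in culture, so they are no sample of Treg cells from tissue.

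Wnt proteins are lipid-modified ligands that bind Frizzled receptors together with LRP5 or LRP6. Without a Wnt signal, a complex built on Axin and APC marks beta-catenin for degradation, and with one, beta-catenin accumulates and acts as a coactivator of TCF and LEF factors in the nucleus. Axin2 is itself a transcriptional target of the pathway and works as a brake on it. In T cells, TCF1 and LEF1 are best known for thymocyte development, for CD4 lineage choice and for the naive and memory-like states, and they act in part without beta-catenin.

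For Wnt3, Tcf7, Lef1 and the feedback gene Axin2, a window at the first listed transcript start was examined for the letters that TCF/LEF factors bind. Wnt3 had the largest difference of the 9 tested members. Each window of 300 bases runs from 250 bases before to 50 bases after a RefSeq transcript start on GRCm38.p6 and is printed along the strand of its gene. The core CTTTG, searched on both strands, is in capitals. The windows are chr11:103773925-103774224 (plus strand) for Wnt3, chr11:52282965-52283264 (minus strand) for Tcf7, chr3:131110047-131110346 (plus strand) for Lef1 and chr11:108920099-108920398 (plus strand) for Axin2.
Wnt3: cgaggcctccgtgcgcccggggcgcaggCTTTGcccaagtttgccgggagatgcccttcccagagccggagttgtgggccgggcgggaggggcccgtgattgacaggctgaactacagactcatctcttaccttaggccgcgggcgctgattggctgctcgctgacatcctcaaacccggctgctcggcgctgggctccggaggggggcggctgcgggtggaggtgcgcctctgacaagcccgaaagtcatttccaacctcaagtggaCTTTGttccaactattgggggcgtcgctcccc
Tcf7: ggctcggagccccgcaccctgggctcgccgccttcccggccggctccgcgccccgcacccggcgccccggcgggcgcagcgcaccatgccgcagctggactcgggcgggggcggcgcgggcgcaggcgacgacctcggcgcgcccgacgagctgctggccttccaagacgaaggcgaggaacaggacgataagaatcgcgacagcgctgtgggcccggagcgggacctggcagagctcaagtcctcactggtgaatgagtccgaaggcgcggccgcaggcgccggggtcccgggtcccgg
Lef1: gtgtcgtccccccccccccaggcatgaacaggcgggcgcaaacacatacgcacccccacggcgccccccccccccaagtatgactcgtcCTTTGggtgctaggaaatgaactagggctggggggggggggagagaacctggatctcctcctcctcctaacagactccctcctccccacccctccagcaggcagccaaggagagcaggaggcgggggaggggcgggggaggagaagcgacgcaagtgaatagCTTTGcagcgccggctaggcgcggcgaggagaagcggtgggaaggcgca
Axin2: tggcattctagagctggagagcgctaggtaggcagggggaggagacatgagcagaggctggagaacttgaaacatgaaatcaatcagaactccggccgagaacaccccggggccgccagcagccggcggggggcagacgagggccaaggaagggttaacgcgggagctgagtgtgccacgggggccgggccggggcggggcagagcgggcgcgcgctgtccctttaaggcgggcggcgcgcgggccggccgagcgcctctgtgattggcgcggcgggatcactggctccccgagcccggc
The Wnt3 window holds the core at positions 29 and 269, counted from its 5′ end, and the Lef1 window holds it at positions 90 and 252. The Tcf7 and Axin2 windows hold none. Both windows lie inside the RefSeq spans of their genes, which begin at 52283383 (Tcf7, minus strand) and 108917828 (Axin2, plus strand). They do not cover these outermost starts, so nothing is said of the sequence there. In all, 7 of the 10 members had windows at a listed start, 13 windows together. Of these, 6, from 3 members (Wnt3, Wnt9b and Lef1), held CTTTG. For comparison, 53.9% of all 32851 windows and 54% of the first windows of 27025 genes hold these letters. The longer letters CTTTGAT or CTTTGAA, of which CTTTG is the start, were in 0 of the 13 windows. They were in 8.65% of all windows and in 8.77% of the first windows of all genes. The windows shown held 65.7% (Wnt3), 76.3% (Tcf7), 67.3% (Lef1) and 70% (Axin2) G and C, against a median of 52.7% over first windows. These shares are therefore not matched for composition. A match is a match of letters only, and its absence covers only these windows. Wnt3, Wnt9b, Axin2 and Tcf7, 4 of the 10 members, lie on chromosome 11.

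Library totals ranged from 30727686 to 37717324 counts, and the biological coefficient of variation over all genes was 4.29%. Levels set between the groups are CPM (counts per scaled library total, with TMM scaling factors of edgeR), and at this depth 3 counts in a library correspond to 0.0762 to 0.0989 CPM. A gene was called when the adjusted p of edgeR's quasi-likelihood test was under 0.05 and was a differentially expressed gene (DEG) when it also differed by more than 2-fold. With 3 libraries against 3, an exact permutation test of 1 value cannot go below p = 0.1. Of all 13463 tested genes, 59.6% were called, 29.7% higher and 29.9% lower in Sora-Treg cells. DEGs made up 6.30% (higher) and 4.97% (lower), and with libraries scaled by their totals they numbered 720 higher and 845 lower. Libraries of the groups were fully separated in 31.8% of them with Sora-Treg higher and in 32.0% with Sora-Treg lower. Against this background, 6 of the 9 tested members were called, 5 lower (Wnt3, Sulf2, Axin2, Tcf7 and Lef1) and 1 higher (Ctnnb1). Of these, 3 were DEGs, all lower (Wnt3, Sulf2 and Tcf7). The groups did not overlap in 6 of the 9, namely the 5 lower and the 1 higher. With libraries scaled by their totals, 0 members were called higher and 5 lower. Because the same contrast was in view when the members were chosen, nothing is read from these counts. In RNA from bulk cells, fewer cells of a type and less RNA per cell cannot be told apart.

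Wnt3 had the largest difference of the 9 tested members. The ctrl-Treg libraries held 827, 861 and 666 counts of it, whereas 17, 48 and 28 were left with Sora. In CPM these were 21.0, 23.7 and 20.9 against 0.560, 1.51 and 0.787. Every ctrl-Treg library was far above every Sora-Treg library, and the second Sora-Treg library was the highest of its group. The means were 21.8 ± 1.58 and 0.951 ± 0.494 CPM (SD, n = 3), a 22.9-fold lower level with Sora and a log2 fold change of -4.52 ± 0.17 (SE). The SD was 7.22% of the ctrl-Treg mean and 51.9% of the Sora-Treg mean, where few counts remained. Lyz2, a macrophage gene named here after its values were seen, was also highest in the second library among the Sora-Treg libraries, at 5.64, 21.2 and 4.66 CPM. Its part in the Wnt3 values was not tested. In ctrl-Treg cells Lyz2 was at 47.5, 47.9 and 12.6 CPM, and Wnt3 was at 21.0, 23.7 and 20.9 CPM. Leaving out each library in turn gave log2 fold changes for Wnt3 from -4.99 to -4.27.

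Wnt9b, the neighbour of Wnt3 and a ligand best known from kidney development, was barely detected. Its 14, 9 and 10 counts all came from ctrl-Treg libraries, since each Sora-Treg library had 0. With the ctrl-Treg level taken as measured, and against a floor of 3 counts over the Sora-Treg group, its level was at least 9.99-fold lower. This allows for counting error on the Sora-Treg side only. In RefSeq, Wnt3 (chromosome 11, 103774175 to 103818021, plus strand) and Wnt9b (103727362 to 103775272, minus strand) overlap at their starts. The strand setting of the counting was not given in the sources used here, so the few Wnt9b counts cannot be told apart from reads of Wnt3.

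**Figure D1:**
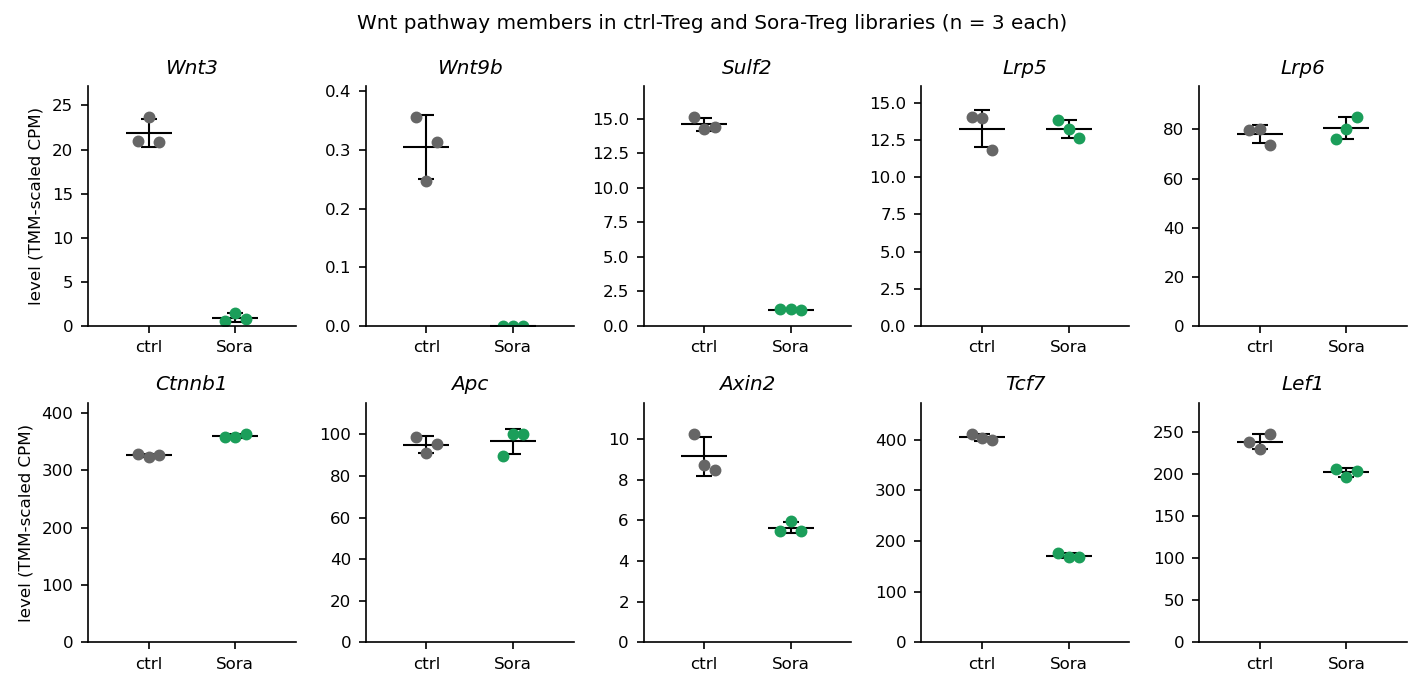
Level of each of the 10 members in TMM-scaled CPM (vertical axes from 0, 1 scale per gene) in 3 ctrl-Treg libraries (grey) and 3 Sora-Treg libraries (green), with mean and SD in black. Wnt3 went from 20.9 to 23.7 CPM in ctrl-Treg libraries to 0.560 to 1.51 in Sora-Treg libraries, while the points of Lrp5, Lrp6 and Apc overlap.

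Most other Wnt ligands were below the filter on low counts. Of 17 further ligands listed, 11 had a row and 3 passed the filter, and the highest count of the other 8 in any library was 4. Wnt10b, a ligand that acts through beta-catenin, fell with Sora from 9.63 ± 0.264 to 2.91 ± 0.173 CPM (SD, n = 3), which is -1.73 ± 0.12 on the log2 scale (edgeR adjusted p = 3.91e-11). Wnt11, better known for signaling without beta-catenin, was called higher at very low levels, 0.263 ± 0.117 against 0.594 ± 0.110 CPM (edgeR adjusted p = 0.0336), and that call was lost, at log2 fold changes from 0.89 to 1.25, without ctrl-Treg library 1 or 3 or Sora-Treg library 2 or 3. Wnt5b was not called, at 0.377 against 0.190 CPM, and without Sora-Treg library 1 the ligands called lower were 2. Porcn, the enzyme that attaches the lipid to Wnts, was nearly absent from ctrl-Treg cells (5, 3 and 2 counts) and present in Sora-Treg cells (41, 32 and 60 counts). It rose to 1.35 ± 0.341 CPM, by 3.82 ± 0.48 on the log2 scale (edgeR adjusted p = 3.47e-07). Wls, which carries Wnts to the cell surface and is named here after its values were seen, was at 24.2 and 24.6 CPM and was not called.

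Sulf2 removes sulfate groups from heparan sulfate outside the cell and so alters how Wnts are held there. Its levels were 15.1, 14.2 and 14.4 CPM in ctrl-Treg libraries and 1.22, 1.19 and 1.12 CPM in Sora-Treg libraries. The libraries within each group were close and the groups were far apart. The means were 14.6 ± 0.461 and 1.18 ± 0.0492 CPM (SD, n = 3), 12.4-fold lower with Sora, and the log2 fold change was -3.63 ± 0.13 (SE). Sulf1, the only other enzyme of this kind on the list, was not tested, with at most 4 counts in a library.

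Genes that build or carry heparan sulfate split in direction. Of 13 tested, 7 were called higher, 5 lower and 1 was not called, with a median log2 fold change of 0.19 against -0.0035 over all tested genes. That is 92.3% called, beside 59.6% of all tested genes. The syndecans, core proteins that bear the chains, differed among themselves. Sdc3 rose from 25.6 ± 1.88 to 65.1 ± 1.73 CPM (log2 fold change 1.35 ± 0.05, edgeR adjusted p = 8.86e-16), and Sdc4 rose from 134 ± 2.68 to 243 ± 3.37 CPM (log2 fold change 0.86 ± 0.03, edgeR adjusted p = 1.22e-16). Sdc1, named here after its values were seen, fell from 5.81 ± 1.42 to 3.41 ± 0.633 CPM (log2 fold change -0.78 ± 0.18, edgeR adjusted p = 0.000727), and Sdc2 was not tested. Ndst1, which starts sulfation of the chain, rose by 0.49 ± 0.04 on the log2 scale (edgeR adjusted p = 8.18e-11). Ext1, which lengthens the chain, fell by 0.53 ± 0.06 on the log2 scale (edgeR adjusted p = 2.85e-08). Gpc3, a glypican, was called higher from very few counts (7, 1 and 1 against 12, 18 and 19), with an edgeR adjusted p of 0.00127.

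The co-receptors Lrp5 and Lrp6 overlapped between the groups. Lrp5 was at 14.0, 14.0 and 11.8 CPM in ctrl-Treg libraries and at 13.8, 13.2 and 12.6 CPM in Sora-Treg libraries. Its log2 fold change was -0.01 ± 0.09 (SE), with a 95% interval from -0.257 to 0.238. Lrp6 was at 79.8, 80.4 and 73.8 CPM against 76.1, 80.4 and 85.0 CPM, with a log2 fold change of 0.05 ± 0.05 (SE) and an interval from -0.0802 to 0.171. For both genes the direction depended on the scaling or on single libraries. On the FPKM scale, which allows for gene length, Lrp6 was 3.14, 3.18 and 3.45 times Lrp5 in ctrl-Treg libraries and 3.04, 3.36 and 3.72 times Lrp5 in Sora-Treg libraries, and these ranges overlapped.

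Of 21 receptor and R-spondin genes listed outside the members, 6 were tested, none of them an R-spondin. Of the 6, 1 was called higher (Fzd7), 2 lower (Fzd5 and Ptk7) and 3 were not called. That is 50% called, beside 59.6% of all tested genes. Fzd10, named here after its values were seen, was not tested, with 11, 6 and 16 ctrl-Treg counts and 0 in each Sora-Treg library. Fzd7 rose from 19.0 ± 1.41 to 41.2 ± 1.27 CPM (log2 fold change 1.12 ± 0.06, edgeR adjusted p = 5.62e-13). Fzd5 fell from 10.2 ± 0.358 to 4.66 ± 0.124 CPM (log2 fold change -1.14 ± 0.11, edgeR adjusted p = 5.67e-09). Ptk7, a co-receptor used mostly in Wnt signaling without beta-catenin, fell from 1.33 ± 0.352 to 0.341 ± 0.250 CPM (edgeR adjusted p = 0.000682).

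Kremen2 had the highest log2 fold change of the tested genes on the pathway lists, with Porcn within its error. KREMEN proteins bind Dickkopf inhibitors and take LRP5 and LRP6 off the cell surface. Of the Dickkopf genes listed, Dkk2 had at most 1 count in a library, Dkk1 and Dkk4 had no row, and Dkk3 is given below. Kremen2 was at 2.57, 2.06 and 1.53 CPM in ctrl-Treg libraries and at 32.6, 31.1 and 31.6 CPM in Sora-Treg libraries. The groups were wide apart, and the difference was 3.93 ± 0.11 on the log2 scale (edgeR adjusted p = 2.16e-18). Kremen1, already at 40.5 ± 0.868 CPM in ctrl-Treg cells, rose to 50.7 ± 4.72 CPM (edgeR adjusted p = 3.76e-05). Of 6 tested genes of receptor turnover and extracellular inhibition, 3 were called higher and 2 lower. That is 83.3% called, beside 59.6% of all tested genes. The lower pair were Dkk3, a divergent Dickkopf relative, at 1.31 ± 0.0813 against 0.379 ± 0.109 CPM (edgeR adjusted p = 0.000242), and Sfrp2, a secreted Wnt-binding inhibitor, at 1.81 ± 0.440 against 0.683 ± 0.188 CPM (edgeR adjusted p = 0.000666).

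Beta-catenin transcript was abundant in both groups. Ctnnb1 was at 328, 324 and 327 CPM in ctrl-Treg libraries and at 358, 359 and 364 CPM in Sora-Treg libraries. The groups did not overlap, but the difference was small, with means of 326 ± 2.35 and 360 ± 3.23 CPM (SD, n = 3) and a log2 fold change of 0.14 ± 0.03 (SE). With libraries scaled by their totals alone, Ctnnb1 had a log2 fold change of 0.03, and the median of all genes moved to -0.119 under that scaling. Transcript levels say nothing here of beta-catenin protein, which the pathway controls by degradation.

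Apc, the large scaffold of the destruction complex, overlapped between the groups. It was at 98.8, 90.9 and 95.5 CPM in ctrl-Treg libraries and at 89.7, 100.3 and 100.1 CPM in Sora-Treg libraries, with a log2 fold change of 0.03 ± 0.04 (SE) and a 95% interval from -0.0978 to 0.149. Its sign turned under upper quartile and library-size scaling. Axin2, the feedback scaffold, was lower in every Sora-Treg library. Its levels were 10.3, 8.74 and 8.49 CPM against 5.50, 5.96 and 5.48 CPM. The means were 9.16 ± 0.961 and 5.65 ± 0.271 CPM (SD, n = 3), and the log2 fold change was -0.70 ± 0.12 (SE).

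The rest of the Dishevelled and destruction complex genes showed small differences in both directions. All 15 were tested, 5 were called higher, 5 lower and 5 were not called, and the median log2 fold change was 0.04. That is 66.7% called, beside 59.6% of all tested genes. Without ctrl-Treg library 2 or Sora-Treg library 3 the higher calls numbered 3, without ctrl-Treg library 1 or Sora-Treg library 3 the lower calls numbered 3, and with libraries scaled by their totals there were 1 higher and 7 lower. Apc2, a relative of Apc at low level, was the 1 DEG, at 2.79 ± 0.546 against 5.87 ± 0.582 CPM (log2 fold change 1.08 ± 0.17, edgeR adjusted p = 7.50e-06). Csnk1e, a casein kinase that acts on Dishevelled, fell by 0.56 ± 0.05 on the log2 scale (edgeR adjusted p = 7.04e-09). Amer1, which binds Apc at the membrane, fell by 0.53 ± 0.08 (edgeR adjusted p = 2.34e-06), and Tnks2, a tankyrase that marks Axin for degradation, fell by 0.31 ± 0.03 (edgeR adjusted p = 2.45e-08).

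Of the nuclear factors, Tcf7 was lower by a larger factor than Lef1. Tcf7 was at 412, 402 and 399 CPM in ctrl-Treg libraries and at 177, 169 and 168 CPM in Sora-Treg libraries. The means of 404 ± 6.50 and 171 ± 4.89 CPM (SD, n = 3) gave a 2.36-fold lower level and a log2 fold change of -1.24 ± 0.03 (SE). Lef1 was at 238, 230 and 248 CPM against 206, 196 and 204 CPM. These means, 239 ± 9.12 and 202 ± 5.10 CPM (SD, n = 3), differed 1.18-fold, with a log2 fold change of -0.24 ± 0.03 (SE). Neither gene overlapped between the groups.

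The balance between these transcripts therefore differed between the groups. The FPKM ratio of Lef1 to Tcf7 was 1.62, 1.60 and 1.74 in ctrl-Treg libraries and 3.26, 3.25 and 3.40 in Sora-Treg libraries. The FPKM ratio of Ctnnb1 to Tcf7 was 2.79, 2.82 and 2.87 against 7.09, 7.45 and 7.59. The FPKM ratio of Lef1 to Ctnnb1 was 0.580, 0.567 and 0.606 against 0.460, 0.437 and 0.448. None of the 3 ratios overlapped between the groups. A gene length cancels when 1 ratio is compared between groups, but it sets the size of the ratio itself, as described with the order of levels.

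Tcf7 overlaps Skp1 in RefSeq (Tcf7 at chromosome 11, 52246527 to 52283383, minus strand), and reads over shared bases could have been split or dropped. Skp1, named here after its values were seen, was at 117 ± 8.85 CPM without and 107 ± 3.09 CPM with Sora (SD, n = 3), and its libraries overlapped. It differed by -0.13 ± 0.04 on the log2 scale (edgeR adjusted p = 0.0175). The part of the overlap in the Tcf7 values was not tested.

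**Figure D2:**
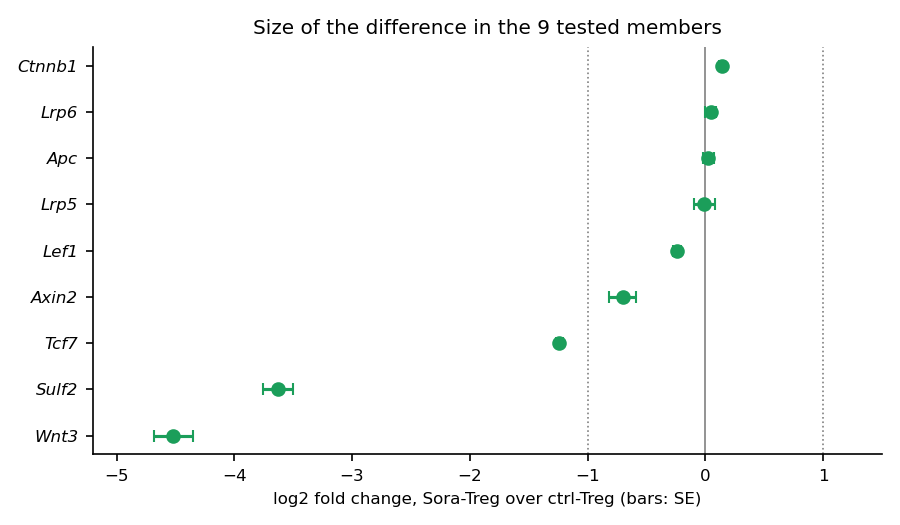
Log2 fold change of the 9 tested members, Sora-Treg over ctrl-Treg (horizontal axis), with SE as bars and dotted lines at 2-fold. Wnt3 (-4.52), Sulf2 (-3.63) and Tcf7 (-1.24) lie beyond the lower line, and Lef1 (-0.24) and Ctnnb1 (0.14) lie near 0.

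Partners of beta-catenin and TCF/LEF in the nucleus, co-activators and co-repressors, split in direction. Of 15 tested, 6 were called higher, 2 lower and 7 were not called, with a median log2 fold change of 0.05. That is 53.3% called, beside 59.6% of all tested genes, of which 29.7% were higher and 29.9% lower. With libraries scaled by their totals, 4 were called higher and 4 lower. Bcl9, an adaptor that joins beta-catenin to Pygopus, rose from 29.6 ± 1.13 to 55.5 ± 0.311 CPM (log2 fold change 0.91 ± 0.05, edgeR adjusted p = 2.40e-13). The acetyltransferase gene Ep300 rose by 0.50 ± 0.03 on the log2 scale (edgeR adjusted p = 1.78e-12). Tle2, a Groucho co-repressor of TCF/LEF factors, rose from 6.36 ± 0.616 to 16.2 ± 1.01 CPM (log2 fold change 1.35 ± 0.10, edgeR adjusted p = 4.84e-11). Tle5, a short relative that lacks part of the Groucho protein, rose by 0.35 ± 0.03 on the log2 scale (edgeR adjusted p = 5.95e-09). The 2 called lower, named after their values were seen, are relatives of these genes. Bcl9l fell by 0.44 ± 0.05 on the log2 scale (edgeR adjusted p = 1.32e-07), and the Groucho gene Tle4 fell by 0.46 ± 0.08 (edgeR adjusted p = 4.98e-05).

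Catenins at cell junctions were tested as well, since they share cadherins with beta-catenin. The cadherin genes listed, Cdh1 and Cdh2, were below the filter, with at most 18 and 5 counts in a library. Ctnna1 (alpha-catenin) rose from 80.1 ± 1.59 to 139 ± 1.90 CPM (log2 fold change 0.79 ± 0.04, edgeR adjusted p = 6.54e-15). Jup (plakoglobin, the closest relative of beta-catenin) rose from 3.89 ± 0.243 to 8.90 ± 0.757 CPM (log2 fold change 1.19 ± 0.12, edgeR adjusted p = 2.23e-08). Ctnnd1 (p120 catenin) was called lower, at 2.98 ± 0.423 against 2.03 ± 0.261 CPM (edgeR adjusted p = 0.0260), a call lost, at log2 fold changes from -0.54 to -0.45, without library 1 or 2 of either group.

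Within ctrl-Treg cells the members spanned a wide range of levels per length. By FPKM the order was Ctnnb1 (93.7 ± 0.937), Lef1 (54.7 ± 2.14), Tcf7 (33.1 ± 0.626), Lrp6 (8.66 ± 0.410), Apc (7.34 ± 0.330), Wnt3 (6.66 ± 0.466), Sulf2 (3.31 ± 0.115), Lrp5 (2.67 ± 0.256), Axin2 (1.72 ± 0.186) and Wnt9b (0.0554 ± 0.0101), each as mean ± SD over 3 libraries. Of neighbours in this order, Apc and Wnt3 overlapped between libraries and the others did not. In Sora-Treg cells Wnt3 moved from place 6 to place 8 and Sulf2 from 7 to 9, so that Lrp5 and Axin2 stood above both. The Sora-Treg FPKM of Wnt3 (0.158, 0.424 and 0.221) and of Sulf2 (0.256, 0.249 and 0.235) overlapped, so their order there is not separated.

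The place of Tcf7 in this order rests on the gene length behind its FPKM. The deposited values imply a length of 12697 bases for Tcf7, whereas the exon union of its GENCODE M21 annotation is 2625 bases and its longest coding transcript 2471 bases. With either of these lengths Tcf7 ranked 1 among the members, at 154 or 164 CPM per kilobase, and Lef1 ranked 3. With the exon union length Wnt3 also moved from place 6 to place 4, Lrp6 moved from 4 to 6, and Axin2 (place 8) stood above Lrp5 (place 9). So the FPKM order turned with the length. Reads were not counted again on the GENCODE models, so reads counted outside them would raise the Tcf7 level per kilobase. The differences in CPM between ctrl-Treg and Sora-Treg cells do not use a length. They still rest on the gene model that set which reads were counted, and that model is not settled.

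**Figure D3:**
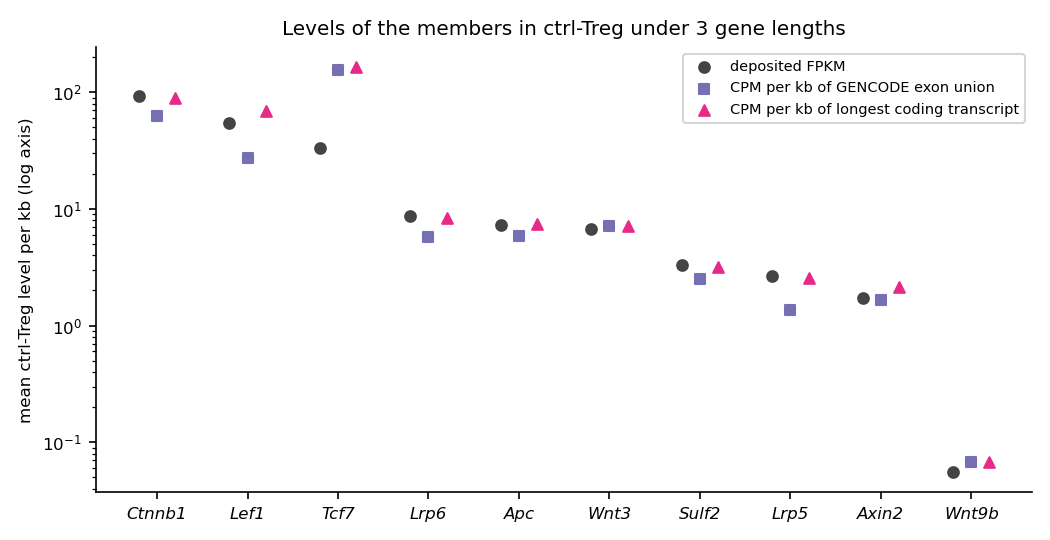
Mean level of each member in ctrl-Treg cells per kilobase (logarithmic vertical axis), as deposited FPKM (circles) and as TMM-scaled CPM per kilobase of GENCODE exon union (squares) or of the longest coding transcript (triangles). Tcf7 stands at 33.1 FPKM but at 154 and 164 CPM per kilobase, above Ctnnb1.

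Genes widely used as readouts of the pathway outside the members split by direction. Of 10 tested, 5 were called higher, 3 lower and 2 were not called, with a median log2 fold change of 0.07. That is 80% called, beside 59.6% of all tested genes. Ccnd1, the gene of cyclin D1, was at 5.23, 5.85 and 4.57 CPM in ctrl-Treg libraries and at 0.264, 0.596 and 0.309 CPM in Sora-Treg libraries. As for Wnt3, the second Sora-Treg library was the highest of its group. Ccnd1 fell by 3.74 ± 0.26 (log2 scale, edgeR adjusted p = 2.33e-11). The AP-1 subunit gene Fosl1 fell from 8.23 ± 1.54 to 2.29 ± 0.350 CPM (log2 fold change -1.85 ± 0.16, edgeR adjusted p = 1.24e-09). Tnfrsf19, at 0.582 ± 0.246 against 0.124 ± 0.110 CPM, was called lower from few counts (edgeR adjusted p = 0.00246). In the other direction, Myc rose from 315 ± 4.41 to 406 ± 13.0 CPM (log2 fold change 0.36 ± 0.03, edgeR adjusted p = 1.87e-10). Bambi, a decoy receptor of the TGF-beta family, rose from 8.62 ± 0.606 to 15.9 ± 0.966 CPM (log2 fold change 0.88 ± 0.09, edgeR adjusted p = 1.68e-08). The stem cell factor gene Ascl2 was called higher at low level, 0.786 ± 0.392 against 2.16 ± 0.586 CPM (edgeR adjusted p = 0.000782).

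Over the 9 lists of pathway genes outside the members, 73 genes were tested, of which 31 were called higher, 21 lower and 21 were not called. The share called was 71.2%, beside 59.6% of all tested genes. DEGs numbered 10 higher and 8 lower, and the median log2 fold change was 0.05. Scaling by library totals gave 20 higher and 28 lower, and over all tested genes it gave 2862 higher and 5614 lower. The plot of these lists shows that the points of most roles lie on both sides of 0.

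**Figure D4:**
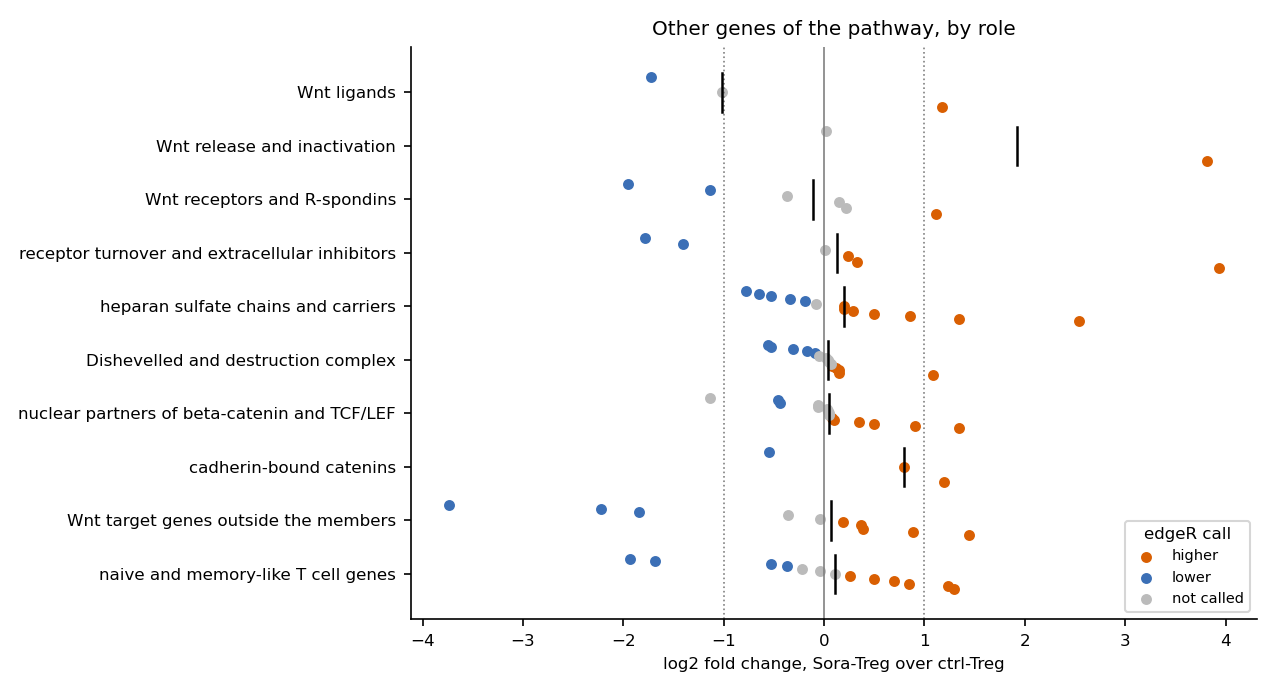
Log2 fold change, Sora-Treg over ctrl-Treg (horizontal axis), of each tested gene of the pathway outside the members, by role (rows), with naive and memory-like T cell genes in the bottom row. Orange points were called higher and blue points lower by edgeR, grey points were not called, black ticks are list medians and dotted lines mark 2-fold. The points farthest from 0 are Kremen2 (3.93) and Porcn (3.82) on the right and Ccnd1 (-3.74) on the left.

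Genes of the naive and memory-like T cell state, in which TCF1 and LEF1 are known to act, were called in both directions. Of 13 tested, 6 were called higher, 4 lower and 3 were not called, with a median log2 fold change of 0.11. That is 76.9% called, beside 59.6% of all tested genes. Satb1, a chromatin organizer of T cells, rose from 352 ± 8.12 to 828 ± 11.6 CPM (log2 fold change 1.23 ± 0.03, edgeR adjusted p = 1.07e-20). Il7r, the interleukin-7 receptor chain, rose by 1.30 ± 0.05 on the log2 scale (edgeR adjusted p = 1.19e-16), and Ccr7, the lymph node homing receptor, rose by 0.70 ± 0.02 (edgeR adjusted p = 1.13e-16). Slamf6, a receptor often used to mark TCF1-positive cells, fell from 68.1 ± 3.20 to 17.8 ± 1.11 CPM (log2 fold change -1.94 ± 0.06, edgeR adjusted p = 3.00e-18). Id3, an inhibitor of E proteins, fell from 15.7 ± 0.886 to 4.86 ± 0.706 CPM (log2 fold change -1.69 ± 0.11, edgeR adjusted p = 5.04e-12).

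Genes with the pattern most like that of a member were found by the root-mean-square difference of mean-centred log2 CPM over the 6 libraries. Closest to Wnt3 were Idi2 (0.368), Epha2 (0.615) and Sulf2 (0.636). Closest to Sulf2 were Epha2 (0.160), Csf2 (0.187) and Bcl2a1d (0.294). For Tcf7 they were Fam43a (0.0235), Phlda3 (0.0412) and Gemin6 (0.0463), and for Lef1 they were Ago1 (0.0129), Dhx37 (0.0159) and Slc35b4 (0.0173). With 6 libraries in 2 groups, this measure mostly matches the size of the group difference.

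The nearest tested protein-coding gene on either side of each member was looked up after the members' values were known. Genes were ordered by their lower RefSeq coordinate on GRCm38.p6, and some were far off (Nrep lies 755932 bases from Apc). The neighbours were 18 genes, of which 6 were called higher, 4 lower and 8 were not called. For comparison, 59.6% of all tested genes were called, 29.7% higher and 29.9% lower. Their log2 fold changes ran from -0.88 to 1.51. Beside the -4.52 of Wnt3, Gosr2 had a log2 fold change of -0.35 ± 0.04 (edgeR adjusted p = 5.75e-08). Nsf, whose span lies 3761 bases past that of Wnt3, had one of 0.19 ± 0.04 (edgeR adjusted p = 0.000667). Ncoa3, 657 bases from Sulf2, rose by 0.32 ± 0.03 on the log2 scale (edgeR adjusted p = 1.57e-09). The only neighbour called beyond 2-fold was Rgs9, which lies 274565 bases from Axin2. It rose from 11.7 ± 0.473 to 33.3 ± 1.09 CPM (edgeR adjusted p = 1.28e-14), in the direction opposite to Axin2.

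Markers of cell types were summed in CPM beside these results. Markers of T cells summed to 1041 to 1055 in ctrl-Treg libraries and 1359 to 1416 in Sora-Treg libraries, with 3 of 3 called higher. Treg markers summed to 3178 to 3222 and 5974 to 6121, with 5 of 6 called higher. Foxp3, their defining gene, was at 259 ± 8.99 and 272 ± 4.75 CPM (SD, n = 3). Myeloid markers summed to 194, 202 and 127 in the ctrl-Treg libraries and to 119 to 149 in the Sora-Treg libraries, with 4 of 6 called lower, and B cell markers summed to 9.71 to 10.7 and 6.09 to 7.68, with 4 of 5 called lower and 1 not tested. CD8 T cell markers summed to 13.2 to 15.1 and 12.6 to 13.8, with 1 of 2 called lower. Natural killer markers summed to 2.20 to 2.36 and 4.42 to 5.08, with 1 of 3 called higher and 2 not tested. Stromal or epithelial markers summed to 6.58 to 9.93 and 34.5 to 36.5, with 1 of 6 called higher (Epcam, 4.20 against 32.1 CPM) and 1 lower. The third ctrl-Treg library had the lowest myeloid sum of its group. Wnt3 (20.9 CPM), Lrp5 (11.8 CPM), Lrp6 (73.8 CPM), Axin2 (8.49 CPM) and Tcf7 (399 CPM) were also at their lowest ctrl-Treg level there. Sulf2 (14.4 CPM), Lef1 (248 CPM), Wnt9b, Ctnnb1 and Apc were not. The part of such cells in the levels of the members was not tested.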

How the data were processed

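RNA-seq of 3 ctrl-Treg and 3 Sora-Treg libraries was used, grouped by sample title. The authors deposited 2 tables, of raw counts and of FPKM, by gene symbol. For genes where it could be computed, the deposited FPKM was a count over the library total and a fixed gene length (largest relative spread of the implied length 1.64e-06 over 20237 genes), so FPKM is no separate measurement and served for levels and ratios between genes and, on log2 scales, for alternative tests. The study's methods name Bowtie2, GRCm38 and an expectation-maximization step, whereas the submitters' processing notes name fastp, HISAT2, HTSeq, DESeq2, R 3.2.0 and GRCm39. The build of the counts, the annotation release and the strand setting are thus not settled, and coordinates here come from RefSeq GRCm38.p6, which held 97.5% of the symbols. Overlapping genes are uncertain.

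Counts were tested in edgeR 4.0.16 (R 4.3.3) by quasi-likelihood, with TMM scaling, filterByExpr (minimum count 10) and Benjamini-Hochberg adjustment over 13463 genes. SEs are those implied by the F statistic, and 95% intervals use them. Alternatives used limma 3.58.1, DESeq2 1.42.0 and other scalings and filters. Scripts were checked on simulated data. Pairs of libraries within a group differed by more than sampling noise (chi-square per degree of freedom 3.48 to 6.23), so none was counted as a copy.

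The members, lists and rules were chosen with earlier results of these data known. Named were the 10 members, every list gene called beyond 2-fold, up to 4 called genes a list with the smallest adjusted p, marker lists, and the 3 tested genes (mean log2 CPM of at least 1) most like Wnt3, Sulf2, Tcf7 and Lef1. Wls, Wnt5b, Fzd10, Dkk1, Dkk2, Dkk4, Sulf1, Sdc1, Sdc2, Bcl9l, Tle4, Cdh1, Cdh2, Skp1, Lyz2, Foxp3 and Epcam were named after their values were seen. So were the neighbouring genes.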

Additional observations from a re-analysis of the deposited data

How the results depend on the processing

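Of 37 named genes outside the members, 35 kept direction and call in every alternative that tested them, and none reversed. The exceptions were Wnt11 and Ctnnd1. All 37 were named because the main fit called them beyond 2-fold or with the smallest adjusted p in a list. Their stability was largely set by that choice and is no test of robustness. Genes named after their values were seen are not among the 37. Wnt3, Sulf2, Axin2, Tcf7 and Lef1 were lower, and Ctnnb1 higher, in all 16 alternatives, with log2 fold changes from -4.99 to -2.60, -3.75 to -1.79, -0.82 to -0.46, -1.36 to -1.22, -0.36 to -0.21 and 0.03 to 0.15. The call of Ctnnb1 was less stable than its sign. Members called higher numbered 0 by library totals and on either FPKM scale, where members called lower remained 5. The values nearest 0 for Wnt3 and Sulf2 came from log2(FPKM + 1), which shrinks low genes by construction. Scaling by library totals alone moved the median of all genes to -0.119, limma on log2(FPKM + 1) to -0.0724 and on log2(FPKM + 0.1) to -0.111.

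Reversed signs were found only in members that were not called. Lrp5 turned to 0.0359, 0.0303 and 0.0249 without ctrl-Treg 1, ctrl-Treg 2 or Sora-Treg 3, and ran from -0.0855 to 0.0359 over the libraries left out. Lrp6 turned to -0.0699 by library totals and to -0.0627 and -0.0693 on the FPKM scales. Apc turned to -0.0123 by upper quartile, -0.0898 by library totals, -0.00347 without ctrl-Treg 2 (up to 0.0794 without another library), and -0.0799 and -0.0900 on the FPKM scales. The log2 ratio of the Lef1 to the Tcf7 level in ctrl-Treg cells, 0.725 by FPKM, turned to -2.503 with the GENCODE exon union and -1.255 with the longest coding transcript, lengths chosen after seeing the data.

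DEGs numbered 275 higher and 186 lower on log2(FPKM + 1) and 547 higher and 575 lower on log2(FPKM + 0.1). By library totals they numbered 720 higher and 845 lower. The pathway lists had 20 genes called higher by library totals and 20 on log2(FPKM + 1). Ligands called higher were 0 by library totals, under either other filter (1 count in any library, or 1 CPM in 3 libraries) and by DESeq2, and 0 to 1 with a library left out. Ligands called lower were 1 to 2 with a library left out. Release genes called higher were 0 with the CPM filter, which removes Porcn. Heparan sulfate genes called higher were 4 on log2(FPKM + 1). Destruction complex genes called higher were 3 by upper quartile, with the count filter and by DESeq2, 1 by library totals and 1 on either FPKM scale. With a library left out they were 3 to 4 higher and 3 to 5 lower. Nuclear partners called lower were 4 by library totals. Junction catenins called lower were 0 on either FPKM scale and 0 to 1 with a library left out. The cause of these shifts was not tested.

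The labels number libraries 1 to 3 in each group. The deviations of same-numbered libraries correlated at -0.0438, 0.0591 and 0.0299, which showed no pairing. These values cannot exclude a shared animal or culture, and the number was not used as a pairing in the main fit. With the replicate block, 4057 genes were called higher and 4064 lower, and 31 and 21 genes of the pathway lists. The level order by RefSeq gene model was not run, since the table gives a gene's span only. With CTTTG in place of the longer letters, 54% rather than 8.77% of the first windows of genes matched. Values of genes with few counts, such as Wnt9b, Wnt11, Wnt5b, Gpc3, Tnfrsf19 and Porcn in ctrl-Treg cells, are limited by depth.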
